A study of Mus musculus with 48 samples.

Results

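Mertk, Axl and Stab1, receptors with which phagocytes take up dying cells, and Gas6 and Pros1, the ligands that couple Mertk and Axl to their target, were described in hippocampal microglia of mouse pups from 3 rearing groups. The 5 genes were chosen by name, with earlier results of these data known, from the 478 genes of the authors' deposited tables. All 5 are listed in each of the 3 tables. Mertk and Stab1 each had a positive log2 ratio that passed the test in both comparisons with the UPS group, with differences of 14.5% to 20.7%. Neither passed between CTL and LB. Axl, Gas6 and Pros1 passed in no comparison.

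The animals were Balbc/Byj pups of both sexes at postnatal day 17, in groups named CTL, LB and UPS with 16 animals each and 8 per sex. CTL is control rearing. As background, LB stands for rearing with limited bedding and nesting material, and UPS for unpredictable postnatal stress, in which nest conditions are also disturbed. The labels name no genetic change and no drug in any group. About 60000 sorted microglia per animal were lysed and their transcripts counted with fluorescent barcode probes of a glial gene panel, without amplification. The 48 libraries ran in 4 batches of 12, each with 2 animals per rearing group and sex, from 4 to 5 litters per group and sex, so that some animals were littermates; litter could not be modelled, and similarity within litters would make the p-values too low. In such bulk samples, fewer cells of a type and less RNA per cell cannot be told apart.

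Dying cells expose phosphatidylserine on their surface as a signal to be eaten. Mertk and Axl are receptor tyrosine kinases of the TAM family that do not bind this lipid themselves. Gas6 binds it with its Gla domain and activates both receptors. Between Mertk and Axl, Pros1, also the anticoagulant protein S, is chiefly a ligand of Mertk. Stab1 (stabilin-1) is a large scavenger receptor of macrophages and sinusoidal endothelium that binds phosphatidylserine directly. In the brain, Mertk is expressed by microglia and astrocytes and is known for the clearance of apoptotic cells and for synapse removal, while Axl is known to be induced in inflamed microglia. TAM signalling is also known to restrain cytokine and interferon responses.

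The tables hold a log2 ratio, a linear ratio and p-values for each gene and pair of groups, and no level per animal, so neither a level nor the overlap of single animals can be given. Their headers do not name the numerator. If the later-named group is the numerator, positive ratios in the pairs with UPS stand for a higher level in UPS. If it is the denominator, they stand for a lower one, for every gene alike. The 3 ratios of each member closed on each other to within 0.0007 on the log2 scale. A gene passed at a Benjamini-Hochberg adjusted p below 0.05 over the 478 genes of a table. Each interval is a 95% interval from the standard error (SE) recovered from the deposited ratio and p.

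Mertk had the second smallest p of the 478 genes in both comparisons with UPS. In the authors' deposited table of CTL versus UPS its log2 ratio was 0.27, or 1.21-fold (SE 0.041, interval 0.19 to 0.36, p = 5.74e-08, adjusted p = 1.37e-05, n = 16 animals per group). In the authors' deposited table of LB versus UPS the ratio was 0.25, or 1.19-fold (interval 0.17 to 0.34, adjusted p = 6.67e-05). Between CTL and LB the authors' deposited table gives 0.020, or 1.01-fold (interval -0.064 to 0.10, p = 0.636, adjusted p = 0.896). The UPS group thus stood apart from both others, and the interval for CTL and LB holds no difference beyond 1.07-fold. By size of ratio Mertk ranked lower than by p, 14th of 478 for CTL and UPS and 23rd for LB and UPS, since its spread was small.

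For Stab1 the UPS group likewise stood apart from both others, with smaller point ratios and a wider error. Its log2 ratio was 0.21, or 1.15-fold, in the authors' deposited table of CTL versus UPS (SE 0.053, interval 0.098 to 0.31, p = 0.000371, adjusted p = 0.0197). For LB and UPS the authors' deposited table gives 0.20, or 1.14-fold (interval 0.088 to 0.30, p = 0.000643, adjusted p = 0.0146). Between CTL and LB the ratio in the authors' deposited table was 0.0097, or 1.01-fold (interval -0.097 to 0.12, adjusted p = 0.966). Stab1 had the 9th smallest p in the first of these tables and the 21st in the second. Under the Benjamini-Yekutieli adjustment, which allows any dependence between genes, Stab1 no longer passed in either pair with UPS and Mertk did.

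Axl had positive ratios with UPS, as Mertk did, but its error was several times as wide. Its log2 ratio, by the authors' deposited tables, was 0.069 for CTL and UPS (SE 0.16, interval -0.25 to 0.39, p = 0.666, adjusted p = 0.869) and 0.080 for LB and UPS (interval -0.24 to 0.40, adjusted p = 0.821). For CTL and LB the authors' deposited table gives -0.011 (interval -0.33 to 0.31, adjusted p = 0.979). The ratio of Mertk lies inside the interval of Axl in both pairs with UPS, so a difference of that size in Axl was not detectable with this spread.

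Gas6, the ligand shared by Mertk and Axl, had ratios of similar size for LB and for UPS against CTL, and no pair passed. In the authors' deposited table of CTL versus LB its log2 ratio was 0.13, or 1.10-fold (SE 0.065, interval 0.0034 to 0.26, p = 0.0445, adjusted p = 0.413). For CTL and UPS the authors' deposited table gives 0.11, or 1.08-fold (interval -0.018 to 0.24, p = 0.0881, adjusted p = 0.386). For LB and UPS the ratio in the authors' deposited table was -0.021 (interval -0.15 to 0.11, adjusted p = 0.892). The low p for CTL and LB did not survive adjustment and rose to 0.0501 with the table centred on its median. In this pair 11.7% of all genes had an unadjusted p below 0.05.

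Pros1, the second ligand of Mertk, lay close to 0 in every pair with a narrow error. Its log2 ratio in the authors' deposited tables was -0.037 for CTL and LB (SE 0.041, interval -0.12 to 0.046, adjusted p = 0.780), -0.013 for CTL and UPS (interval -0.095 to 0.070, adjusted p = 0.899) and 0.024 for LB and UPS (interval -0.058 to 0.11, adjusted p = 0.788). The 3 intervals together run from 0.921-fold to 1.08-fold. The point ratios of Mertk lie outside the Pros1 intervals in both pairs with UPS, and also outside those of Gas6. For CTL and UPS, however, the intervals of Mertk (0.19 to 0.36) and Gas6 (-0.018 to 0.24) overlap.

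**Figure D1:**
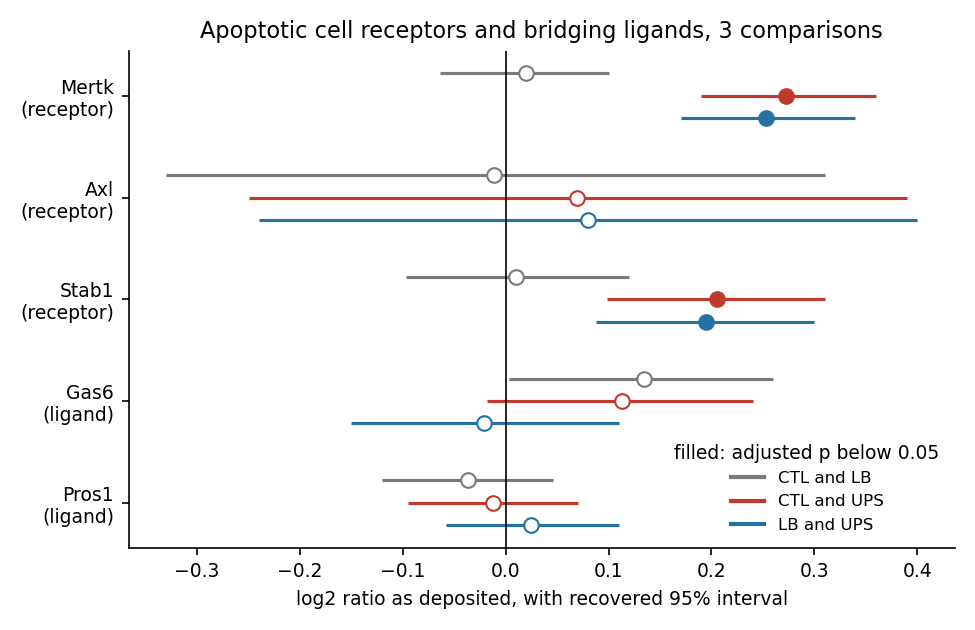
Log2 ratios of the 5 genes as deposited (horizontal axis, log2 units) in the comparisons of CTL and LB, CTL and UPS, and LB and UPS; lines are recovered 95% intervals, and filled points had an adjusted p below 0.05. Mertk and Stab1 sit between 0.20 and 0.27 in both comparisons with UPS and near 0 between CTL and LB, while the Axl intervals span from -0.33 to 0.40.

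Counted over the members, 0 of 5 passed between CTL and LB, where 0% of all genes passed by the deposited Benjamini-Hochberg values; at an unadjusted p below 0.05 this was 1 of 5 members, or 0 with the table centred on its median, against 56 of 478 genes as deposited. Between CTL and UPS 2 of 5 passed, where 4.81% of all genes did, and between LB and UPS 2 of 5, where 6.28% did. At an unadjusted p below 0.05 the members passing were again the same 2 in each of these pairs, beside 16.3% and 18.8% of all genes. The median log2 ratio of the 5 members was 0.0097 for CTL and LB, 0.11 for CTL and UPS and 0.080 for LB and UPS, beside medians of 0.0035, -0.0024 and -0.010 over all genes. With UPS, 4 of the 5 ratios were positive in each pair, and 48.7% (CTL) and 43.9% (LB) of all genes were. The members were chosen with earlier results of these data known. The shares of all genes set beside their counts, here and in the tests below, are therefore a description. The pairs share their UPS animals, so their counts are not separate evidence.

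A single test over the 3 groups avoids that sharing. The F statistic (2 and 42 degrees of freedom), rebuilt from the deposited ratios and recovered errors, was 27.0 for Mertk (p = 2.85e-08, adjusted p = 6.82e-06, rank 2 of 478) and 9.53 for Stab1 (adjusted p = 0.0123, rank 15). It was 2.48 for Gas6 (p = 0.0957, adjusted p = 0.337), 0.42 for Pros1 (adjusted p = 0.799) and 0.15 for Axl (adjusted p = 0.925). So 2 of 5 members passed, where 6.90% of all genes, 33 in number, did. Of the variation between groups, 99.6% for Mertk and 99.8% for Stab1 lay in the contrast of UPS with the mean of CTL and LB. The share was 98.3% for Axl, which did not pass, 13.6% for Gas6 and 3.03% for Pros1. A high share therefore does not show that the groups differ. Among the 33 genes that passed, this share had a median of 95.6% and ran down to 1.39%, and 6 genes had a share at least that of Mertk.

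That contrast was 0.26 on the log2 scale for Mertk, or 1.20-fold (SE 0.036, interval 0.19 to 0.33, adjusted p = 1.15e-06 over 478 genes). For Stab1 it was 0.20, or 1.15-fold (SE 0.046, interval 0.11 to 0.29, adjusted p = 0.00326). The others lay at 0.075 for Axl (interval -0.20 to 0.35), 0.046 for Gas6 (interval -0.067 to 0.16) and 0.0056 for Pros1 (interval -0.066 to 0.077), with adjusted p of 0.850, 0.726 and 0.967. Again 2 of 5 members passed, where 7.32% of all genes did. Stab1 also passed here under the Benjamini-Yekutieli adjustment, though in neither pair with UPS nor in the test over 3 groups. The contrast was chosen with earlier results of these data known. It is the mean of both ratios with UPS, so its passes are not separate evidence.

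Whether the members differ from each other in this contrast depends on how they vary together in the same animals, which the tables do not show. Intervals were therefore set for the whole range of possible correlations, over the 10 pairs of members. Mertk exceeded Pros1 by 0.26 with a 95% interval of 0.11 to 0.40 at the least favourable correlation, and Gas6 by 0.22 with 0.031 to 0.40. Stab1 exceeded Pros1 by 0.19 with 0.030 to 0.36. These 3 pairs exclude 0 whatever the correlation, with no adjustment over the 10 pairs. Mertk exceeded Axl by 0.19, and that interval holds 0 at any correlation, from -0.017 to 0.39 at its narrowest and from -0.16 to 0.54 at its widest. The 2 TAM receptors are therefore not shown to differ, nor to act alike. For Mertk and Stab1 the difference of 0.062 had a widest interval from -0.10 to 0.23 and depends on the correlation, as does that of Stab1 and Gas6. In the single pairs of groups, Mertk minus Gas6 was less uniform. For LB and UPS it was 0.27 and excluded 0 at any correlation, with a widest interval from 0.06 to 0.49. For CTL and UPS it was 0.16 and depends on the correlation, from -0.055 to 0.37 at its widest and from 0.11 to 0.21 at its narrowest.

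**Figure D2:**
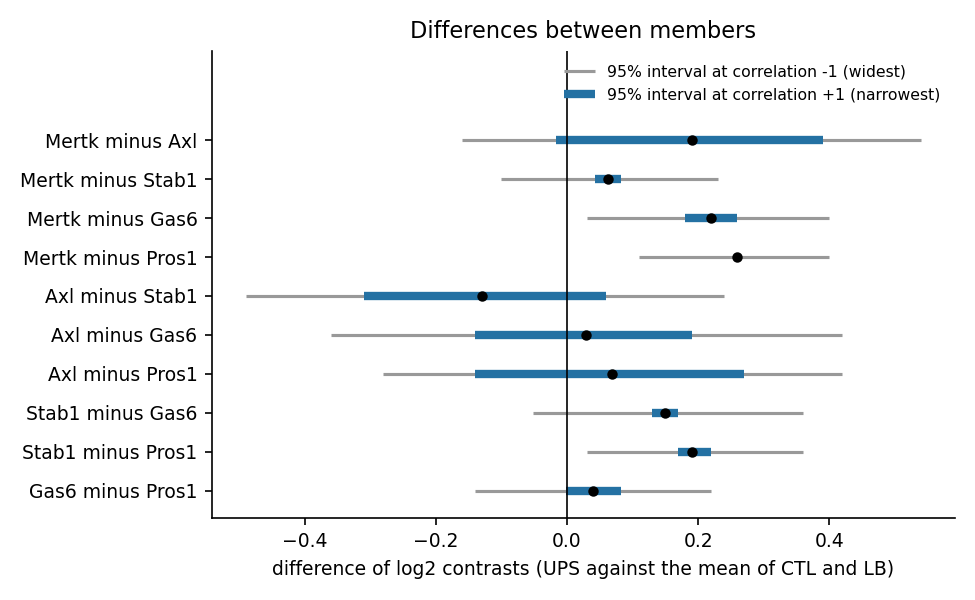
Differences between members in the log2 contrast of UPS with the mean of CTL and LB (horizontal axis, log2 units; points), with the 95% interval at a correlation of -1 between the genes (grey, widest) and of +1 (blue, narrowest; hidden by the point for Mertk minus Pros1). The widest intervals of Mertk minus Pros1, Mertk minus Gas6 and Stab1 minus Pros1 exclude 0, and all 4 pairs with Axl hold 0 even at their narrowest.

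The recovered errors also give the spread between animals of a group, after batch. The SD on the log2 scale was 0.12 for Mertk and for Pros1 (1.08-fold), 0.15 for Stab1 (1.11-fold) and 0.18 for Gas6 (1.14-fold). For Axl it was 0.45 (1.36-fold). Mertk and Pros1 were thus among the tighter genes of the panel, with 33.5% and 31.8% of genes having a smaller error, and Axl was wider than 93.7% of genes. The ratio between CTL and UPS was 2.33 SD for Mertk, 1.37 SD for Stab1, 0.62 SD for Gas6, 0.15 SD for Axl and -0.11 SD for Pros1. The smallest difference that a 95% interval centred on 0 would exclude was 1.06-fold for Mertk and Pros1, 1.08-fold for Stab1, 1.09-fold for Gas6 and 1.25-fold for Axl. Whether the wide spread of Axl goes with a low count was not tested, since no counts were used here.

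**Figure D3:**
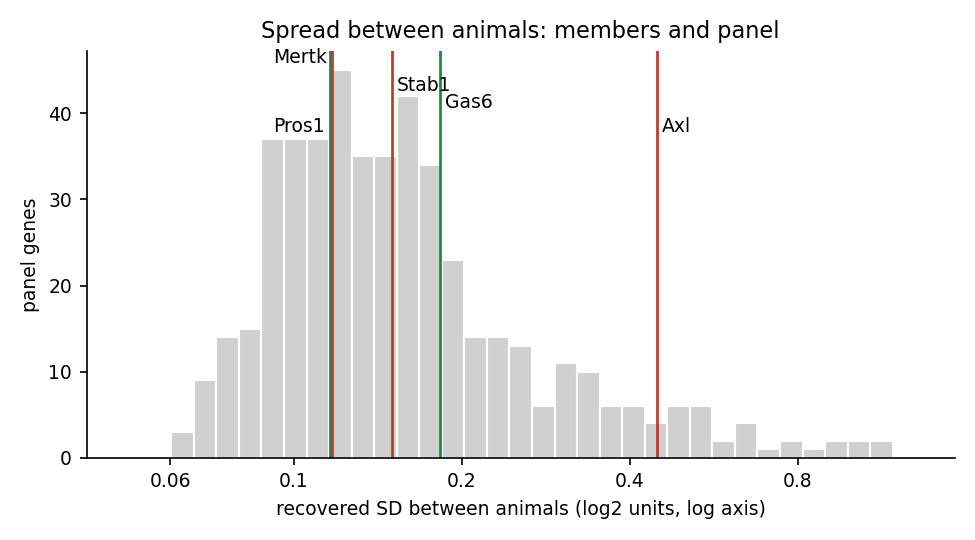
Number of panel genes (vertical axis) by the recovered SD between animals of a group (horizontal axis, log2 units on a log axis), with red lines for the receptors and green lines for the ligands. Mertk and Pros1 lie at 0.12, Stab1 at 0.15 and Gas6 at 0.18, and Axl lies in the upper tail at 0.45.

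Promoter sequence is shown for Mertk and Stab1, which each passed in both pairs with UPS, and for Axl, the relative of Mertk that did not pass. They are the 250 bases before the start site in a RefSeq promoter table of GRCm38.p6, on chr2:128698665-128698914 (plus strand), chr14:31168642-31168891 (minus strand) and chr7:25788734-25788983 (minus strand). Capitals mark matches, on either strand, of the GC box GGGCGG, the PU.1-type core GAGGAA and the SMAD-type element CAGAC. The TATA box TATAAA was searched too and is in none of the 3.

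Mertk: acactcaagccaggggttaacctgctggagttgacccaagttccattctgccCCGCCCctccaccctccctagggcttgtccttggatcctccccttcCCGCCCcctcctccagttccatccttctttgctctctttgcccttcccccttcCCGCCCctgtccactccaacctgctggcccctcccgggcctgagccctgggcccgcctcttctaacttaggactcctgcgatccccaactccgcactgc

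Stab1: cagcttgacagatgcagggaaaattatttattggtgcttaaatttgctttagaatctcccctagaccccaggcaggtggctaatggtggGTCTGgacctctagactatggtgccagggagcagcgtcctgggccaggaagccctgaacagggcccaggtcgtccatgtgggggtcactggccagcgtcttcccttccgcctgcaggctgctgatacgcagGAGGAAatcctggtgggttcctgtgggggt

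Axl: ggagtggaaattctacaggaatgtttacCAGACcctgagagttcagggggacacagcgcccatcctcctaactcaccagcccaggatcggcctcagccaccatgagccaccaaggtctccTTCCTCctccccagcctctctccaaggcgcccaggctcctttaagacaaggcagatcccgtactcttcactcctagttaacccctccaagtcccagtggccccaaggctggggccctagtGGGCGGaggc

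The Mertk and Stab1 windows share none of these elements. Mertk holds 3 GC boxes and no other match, and Stab1 holds 1 PU.1-type core and 1 SMAD-type element but no GC box. Axl holds 1 of each. Of the ligands, Gas6 has 4 GC boxes and 1 SMAD-type element, and Pros1 has 5 GC boxes, overlapping matches included. Among 32851 promoter windows of this length, 32.7% hold a GC box, 23.3% the PU.1-type core, 42.2% the SMAD-type element and 12.4% TATAAA, so each is common. The G and C share of the window was 63.6% for Mertk, 57.2% for Stab1 and 60.0% for Axl, beside a median of 52.4%. The 5 genes lie on 5 different chromosomes, and a match in letters is a description, not a binding site.

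The panel genes with the pattern nearest to each member, by distance over the ratios of CTL and LB and of CTL and UPS in the authors' deposited tables, differed by member. Stab1 was closest to Usp2, a ubiquitin protease, which had log2 ratios of 0.0024, 0.20 and 0.20 for CTL and LB, CTL and UPS, and LB and UPS in the authors' deposited tables. Stambpl1, a deubiquitinase, and Tlr4, the lipopolysaccharide receptor, followed at distances of 0.038 and 0.040 on the log2 scale, and 8 genes lay within 0.05 of Stab1. Mertk had none within 0.05. Its nearest were Adgra2, an adhesion receptor, at 0.056, the inflammasome sensor Nlrp3 at 0.061 and Stab1 itself at 0.068. Adgra2 missed the threshold in the authors' deposited table of CTL versus UPS (0.29, SE 0.15, adjusted p = 0.315), and Nlrp3 passed there (0.23, adjusted p = 0.0206).

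The other members sat in denser parts of the panel. Axl was nearest to Rapgef2 (distance 0.011), Reck (0.018) and the engulfment adaptor Elmo1 (0.018) among 53 genes within 0.05. Pros1 was nearest to Acot13, Atp5pb and Serpine2 among 95. Gas6 had 12 within 0.05, among them Bax, the pore-forming apoptosis effector, at 0.015 and Prkab1, a subunit of the kinase AMPK, at 0.030. In the authors' deposited tables Bax had log2 ratios of 0.13, 0.098 and -0.031, the same signs as Gas6, and passed in none. These patterns rest on 3 group means and so on only 2 independent values per gene, and CTL enters both. The SE of a ratio was 0.041 for Mertk and Pros1, 0.053 for Stab1, 0.065 for Gas6 and 0.16 for Axl. The distances named for Stab1, Axl, Gas6 and Pros1 were smaller than that error. The neighbours carry errors of their own. Which gene is nearest to a member, and whether Mertk lies apart from the panel, was not tested.

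**Figure D4:**
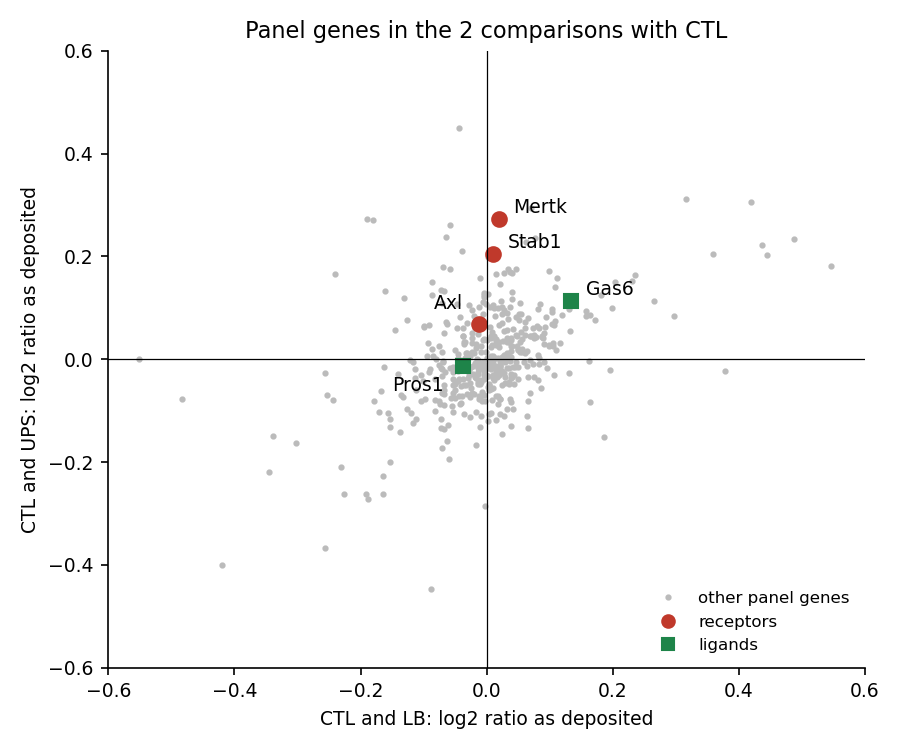
Log2 ratio as deposited for CTL and UPS (vertical axis) against that for CTL and LB (horizontal axis) for the panel genes (grey), with receptors as red circles and ligands as green squares; 8 genes lie outside the axes. Mertk and Stab1 lie high on the vertical axis close to 0 on the horizontal, Gas6 lies off the centre on both, and Axl and Pros1 lie within the dense centre; both ratios share the CTL animals.

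The rest of the clearance pathway was read from 7 lists of 123 genes, of which 41 genes in 6 lists were measured; no sheddase gene was among them. Of these 41 genes, 0 passed between CTL and LB by the deposited Benjamini-Hochberg values (7 at an unadjusted p below 0.05), 7 (17.1%) between CTL and UPS and 9 (22.0%) between LB and UPS, beside 0%, 4.81% and 6.28% of all genes. The lists were drawn up with results of these data known, so that these shares are a description. Tyro3, the third TAM receptor, and Mfge8, another bridging protein, were not analysed here.

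Among other receptors and bridging proteins for exposed phosphatidylserine, 3 of 6 measured genes passed between LB and UPS and 0 in the other pairs. They were C1qa (0.13, adjusted p = 0.00101), C1qb (0.16, adjusted p = 0.000347) and C1qc (0.13, adjusted p = 0.00956) in the authors' deposited table and encode the chains of complement C1q, which bridges dying cells and synapses to phagocytes. Unlike Mertk and Stab1, C1qb had ratios of opposite sign against CTL in the authors' deposited tables, -0.099 with LB and 0.064 with UPS. The lipid receptor Trem2 (0.013), its adaptor Tyrobp (0.011) and the coreceptor Cd14 (0.11) missed the threshold between LB and UPS in the authors' deposited table. The median log2 ratio of the 6 was -0.045, 0.050 and 0.12 in the 3 pairs. Counts at an unadjusted p below 0.05 were 3, 2 and 3 of the 6. Over all genes the shares at that threshold were 11.7%, 16.3% and 18.8%. The 3 for CTL and LB were C1qa, C1qb and Cd14, all negative. The 2 for CTL and UPS were C1qa and C1qc, both positive.

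Of 9 engulfment signalling genes, 2 passed with a positive ratio in each pair with UPS and 0 with a negative one. These were the PI3-kinase subunits Pik3cb, at 0.18 (adjusted p = 0.0199) with CTL and 0.25 (adjusted p = 0.000317) with LB, and Pik3r1, at 0.16 (adjusted p = 0.0310) and 0.17 (adjusted p = 0.0122), in the authors' deposited tables. PI3-kinase acts downstream of TAM receptors and of many others. Elmo1, which with Dock1 activates Rac for engulfment, was at 0.062 for CTL and UPS and 0.057 for LB and UPS in the authors' deposited tables and did not pass. The median of the 9 was -0.019, 0.014 and 0.037.

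None of 3 genes of nuclear receptor signalling and cargo lipid efflux passed in any pair by the deposited Benjamini-Hochberg values, and 0, 1 and 2 of them had an unadjusted p below 0.05 in the 3 pairs. These were the lipid carrier Apoe, at 0.13 for CTL and UPS (p = 0.0451) and 0.13 for LB and UPS (p = 0.0386), and the cholesterol exporter Abca1, at 0.10 for LB and UPS (p = 0.0363), by the authors' deposited tables. Their median was -0.0042, 0.11 and 0.10. None of 9 genes of find-me and do-not-eat-me signalling passed by those values either, and 1, 2 and 2 of them had an unadjusted p below 0.05. Of these, Sirpa, the receptor of the do-not-eat-me protein Cd47, had the smallest p, at 0.12 for LB and UPS in the authors' deposited table (p = 0.00709, adjusted p = 0.0788).

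Innate signalling genes, a class that TAM receptors are known to restrain, went both ways. Of 10 measured, 3 passed in each pair with UPS, 2 of them positive and 1 negative. For CTL and UPS these were Tlr7, the endosomal RNA sensor (0.45, adjusted p = 1.65e-06), Tlr4 (0.17, adjusted p = 0.0120) and the lipoprotein receptor Tlr2 (-0.19, adjusted p = 0.0199) in the authors' deposited table. Between LB and UPS they were Tlr7 (0.49), Tlr4 (0.15) and the cytokine gene Il1b (-1.04, adjusted p = 0.0207) in the authors' deposited table. Medians of the 10 were 0.026, 0.049 and -0.0023. Tlr7 was the single gene with a smaller p than Mertk in both pairs.

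TGF-beta signalling keeps microglia in their mature state, and 4 of its genes were measured. For CTL and UPS the receptor Tgfbr1 (0.11, adjusted p = 0.0368) and the feedback inhibitor Pmepa1 (0.17, adjusted p = 0.0461) were positive and passed in the authors' deposited table. Between LB and UPS Tgfbr1 passed (0.18, adjusted p = 0.000180) and Pmepa1 missed the threshold (0.14) in the authors' deposited table. The ligand Tgfb1 was at -0.076 for LB and UPS in the authors' deposited table (adjusted p = 0.0725). The medians of the 4 were 0.0070, 0.080 and 0.10.

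**Figure D5:**
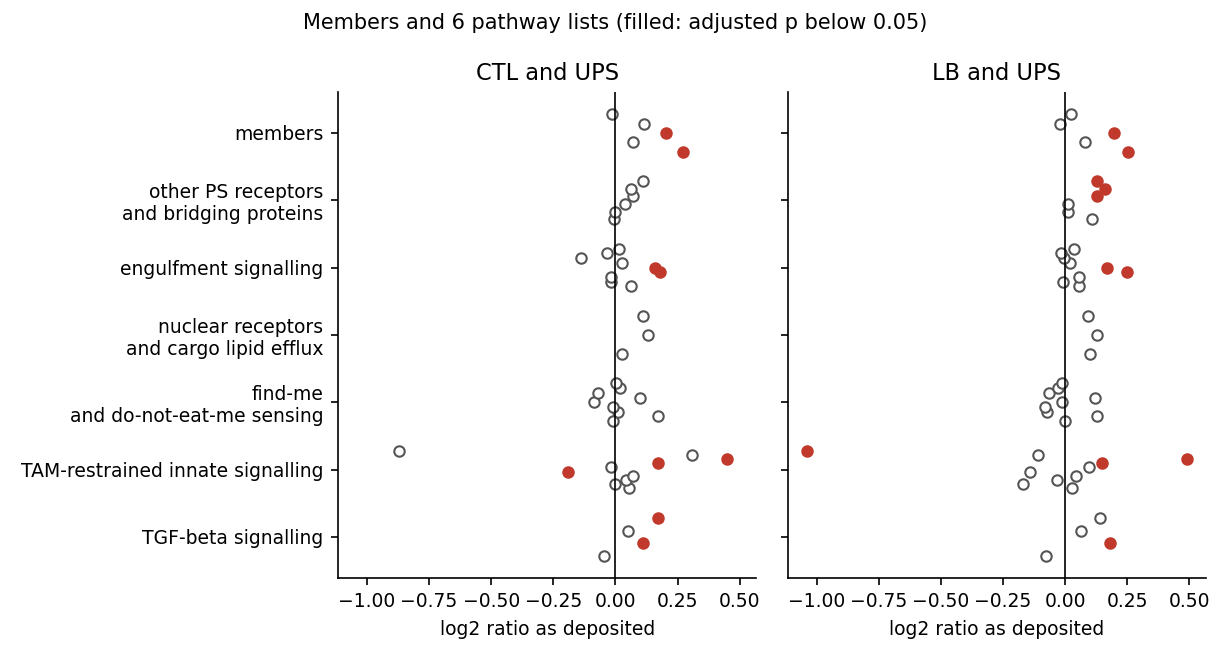
Log2 ratios as deposited (horizontal axes, log2 units) for CTL and UPS (left) and LB and UPS (right) of the 5 members and of the measured genes of 6 pathway lists, 1 point per gene; filled points had an adjusted p below 0.05. Filled points lie to the right of 0 except Tlr2 at -0.19 on the left and Il1b at -1.04 on the right.

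Markers of cell types were read for what could move with Stab1 and Mertk. All 15 microglial markers looked for, Cx3cr1, P2ry12 and Sall1 among them, are listed in the tables. Their median log2 ratio was -0.0086, -0.00074 and -0.00063 in the 3 pairs, and 8 of the 15 were negative in each pair with UPS. By the authors' deposited values Tgfbr1 passed in both pairs with UPS, at 0.11 and 0.18. Tmem119 passed between LB and UPS, at 0.46 (adjusted p = 0.0076). Between CTL and UPS it was at 0.27 and missed the threshold (adjusted p = 0.21). Since the tables hold no levels, the identity of the sorted cells could not be checked beyond this. Stab1 also marks macrophages of the brain borders, and of 11 such markers only Apoe and Stab1 itself were measured; Mrc1, Cd163 and Lyve1 were not analysed here. Of 8 astrocyte genes looked for 2 were measured, and the glutamate transporter Slc1a3 passed with positive ratios in both pairs with UPS, 0.21 (adjusted p = 0.0461) and 0.25 (adjusted p = 0.00995) in the authors' deposited tables while Glul, at 0.11 and 0.15, missed the threshold. Astrocytes express Mertk as well. The 4 measured markers of blood, vascular and neuronal cells (Csf3r, Klrd1, Pecam1 and Gad1) passed in 0 cases by the deposited Benjamini-Hochberg values, and 2 of them had an unadjusted p below 0.05 in some pair. The part of border macrophages or astrocytes in the Stab1 and Mertk ratios was not tested.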

How the data were processed

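Transcript counts of 48 libraries were compared by the authors for each pair of rearing groups. Per the file headers, the deposited columns for each of 478 genes are a ratio between groups on the log2 and on the linear scale, its p-value, and that p-value after Benjamini-Hochberg adjustment. Per the series text, the authors used the advanced analysis of nSolver with batch as covariate; normalization is not given in the sources used here, and no library's depth is known.

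No model was refitted on animals. The Benjamini-Hochberg values over all genes of a table, recomputed, gave the same calls as the deposited ones (0 of 1434 differed). The SE was recovered from ratio and p with a t distribution of 42 residual degrees of freedom, which belong to a model of 3 groups with batch. These gave the 3 tables of a gene the most similar errors (median mismatch 0.133%, against 0.140% without batch or with sex added and 0.274% to 0.348% for models of 2 groups), so the choice among the models of 3 groups is not settled. Linear ratios equalled the log2 column to within 0.49%. From the same values came the F statistic, the contrast of UPS with the mean of CTL and LB, and the intervals for pairs of members, whose correlation is unknown. The calculation was tested on simulated data. Python 3.11.15, numpy 2.4.6 and scipy 1.17.1 were used.

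Genes named were the 5 members, the 3 nearest genes of each, and list genes that passed or had the smallest p; others were added to complete a description. A gene that the rule names is not reported here. Members, lists, tests and the UPS contrast were chosen with earlier results of these data known. Alternatives were other adjustments, centring, a fold minimum of 1.1 and other degrees of freedom.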

Additional observations from a re-analysis of the deposited data

Results flagged for a closer look

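The difference between the stress models was itself tested for 2 members. For Mertk the ratio of CTL and UPS exceeded that of CTL and LB by 0.25 on the log2 scale, which is the comparison of LB and UPS in the authors' deposited table (adjusted p = 6.67e-05). For Stab1 the authors' deposited table gives 0.20 for the same difference (adjusted p = 0.0146). Both comparisons with CTL share its 16 animals. The ratio of LB and UPS does not use their mean, but its error appears to be pooled over the 3 groups and so draws on them.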

How the results depend on the processing

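Of 27 alternatives for the counts of members past the threshold, 24 left the count as it was. Under the Benjamini-Yekutieli adjustment it fell to 1, Mertk, for CTL and UPS, for LB and UPS and for the test over 3 groups, because that adjustment is stricter by construction. Adjusting the 3 tables together, the deposited adjusted p, centring each table on its median, a fold minimum of 1.1 and the other degrees of freedom changed no member's call. The deposited adjusted p could change none, since it gave the same call as the recomputed one for every gene. The 75 alternatives for single ratios changed no sign and no call by adjusted p, and moved a ratio or an interval bound by at most 0.010. Most of them were other degrees of freedom, which leave the ratio and its deposited p as they are and move only the interval. Of these alternatives, only centring could have changed a sign or a call. One interval changed sides of 0: with the table centred on its median, that of Gas6 for CTL and LB ran from -6e-05 to 0.26, and the count of members at an unadjusted p below 0.05 in that pair fell from 1 to 0. No paired analysis was possible because the tables hold no values per animal, and leaving out replicates could not be run for the same reason. Litter and sex could not be separated, and the depth behind each ratio is unknown.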
